A study of Homo sapiens with 8 samples.

Results

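The 10 genes described here are the cytosolic heat shock chaperones HSP90AA1, HSP90AB1, HSPA8, HSPA4, HSPH1, HSPB1 and DNAJB1, the co-chaperone BAG3, the chaperone-bound ubiquitin ligase STUB1 and the transcription factor HSF1. They were picked by symbol and not by a rule on their values, but with earlier results of these data known. They come from a table of 54261 genes in 8 libraries, and all 10 passed the filter on low counts. The study examined the circular RNA circPLCE1 and the protein it encodes in colorectal cancer (CRC). It drew on earlier work in which RPS3, a ribosomal protein that also acts in NF-κB signaling, is kept stable by HSP90 and degraded through HSP70 and STUB1. Its own evidence for this model came from immunoprecipitation and from RPS3 protein and ubiquitylation, while it reported RPS3 mRNA as unchanged. The transcript levels below do not measure protein binding or degradation. The normal group was NCM460 and HIEC6, which the labels call normal human intestinal epithelial lines (n = 2 lines), and the CRC group was DLD1, HCT116 and HCT8, lines derived from colorectal tumors (n = 3 lines). The hypoxia group was DLD1, HCT116 and HCT8 again, labelled with a hypoxia treatment for which neither an oxygen level nor a duration was stated. All lines carried no further treatment in the labels, grew in the same serum-supplemented DMEM and gave 1 library each, so the replicates of a group were different cell lines and a line under hypoxia had no replicate. The extraction text of the labels names prefrontal cortex, whereas every other label names a cell line.

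HSP90 and HSP70 are ATP-driven chaperones that hold and refold client proteins. J-domain proteins such as DNAJB1 load clients onto HSP70, nucleotide exchange factors such as BAG3 and the HSP110 proteins release them, and STUB1 (also called CHIP) binds the tail of HSP70 or HSP90 and ubiquitinates the client. HSF1 drives many of these genes in proteotoxic stress by binding heat shock elements, which are alternating GAA and TTC units, in their promoters.

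To show where such elements lie, the promoter windows of the RefSeq table (GRCh38.p14, from 250 bases before to 50 bases after a start site, 300 bases in all) were searched for the 3-unit element TTCNNGAANNTTC and its reverse complement GAANNTTCNNGAA, and for the 2-unit elements GAANNTTC and TTCNNGAA, of which each 3-unit match holds 2. Of the 10 genes, 8 had a window that was used, and STUB1 and HSF1 had none. HSP90AB1, HSP90AA1 and DNAJB1 had several start sites, so the 8 genes had 13 windows. A 3-unit element was found in 3 of the 8 genes (37.5%), HSP90AB1, HSPA8 and HSP90AA1, and in 166 of all 27305 genes of the table (0.608%). By window these shares were 23.1% and 0.49%. A 2-unit element was found in 5 of the 8 genes (62.5%), those 3 with HSPB1 and DNAJB1, and in 16.2% of all genes (46.2% and 13.5% by window). These 5 genes include HSPA8 and HSPB1, the furthest below and above 0 of the 10 in the comparison under hypoxia. Whether the elements bear on those values was not tested. The matching stretches follow. Each is written from 5′ to 3′ on the strand of its gene, and capitals mark the 3-unit match in the first 3 sequences and the 2-unit matches in the last 2.

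HSP90AB1, chr6:44247763-44247858, plus strand, from -180 to -85 of the start site: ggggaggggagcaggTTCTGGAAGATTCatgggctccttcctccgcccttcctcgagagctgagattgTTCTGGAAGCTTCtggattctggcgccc
HSPA8, chr11:123062164-123062206, minus strand, from -70 to -28: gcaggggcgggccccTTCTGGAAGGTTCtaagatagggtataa
HSP90AA1, chr14:102087105-102087147, minus strand, from -103 to -61: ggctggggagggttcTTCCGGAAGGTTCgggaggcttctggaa
HSPB1, chr7:76302476-76302513, plus strand, from -197 to -160: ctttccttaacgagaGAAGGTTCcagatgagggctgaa
DNAJB1, chr19:14518422-14518489, minus strand, from -92 to -25: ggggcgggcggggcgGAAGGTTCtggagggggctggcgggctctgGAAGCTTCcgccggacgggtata

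HSPA8 had a second 3-unit match farther upstream that is not printed. DNAJB1 had a further 2-unit match in the window of another start site, also not printed. The 3-unit matches of HSP90AB1 and HSP90AA1 lay in a single window of each gene. The core of the hypoxia response element (ACGTG or GCGTG, or CACGT or CACGC on the other strand) was present in 5 of the 8 genes (62.5%) and in 52.4% of all genes of the table. These are matches of letters in a window, not measured binding.

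Total counts per library lay between 45519306 and 57374239, so that 3 counts corresponded to at most 0.0659 CPM (each count divided by the total of its library, times 1e6), and even the lowest count of the 10 genes, for BAG3 in HCT8 under hypoxia, was 1780. Intervals below cover counting error only. The library labelled NCM460 stood apart from its label's group. Across genes, its log2(CPM + 1) correlated at 0.994 with HCT116 and at 0.924 with HIEC6. Of the 10 genes, 8 lay nearer to HCT116 in NCM460 than in HIEC6, and the share of all genes that did was not computed. The difference of each of the 10 genes and of RPS3 from the normal lines is therefore also given for HIEC6 alone. HIEC6 had an EPCAM level of 0.176 CPM, a CDH1 level of 3.03 CPM and a VIM level of 1223 CPM. The other 4 untreated lines had EPCAM at 275 to 651 CPM and VIM at 1.03 to 8.62 CPM. Defining epithelial markers were thus close to absent from HIEC6, although the 8 epithelial markers, keratins included, summed to 8019 CPM. The mesenchymal markers were mixed. VIM, FN1, COL1A1 and PDGFRB were highest in HIEC6 among the untreated lines. COL1A2, COL3A1, SPARC and THY1 were lower in HIEC6 than in NCM460, with COL1A2 at 0.458 against 7.99 CPM. The untreated and the hypoxia libraries of the CRC lines shared no run label, so run and treatment cannot be told apart.

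Levels of different genes were compared per kilobase of the canonical transcript. HSPA8 (the constitutive HSP70) stood at 1674 CPM in DLD1, HSP90AB1 (HSP90β) at 1236 CPM and HSP90AA1 (HSP90α, the stress-inducible form) at 790.1 CPM. HSPB1, the small heat shock protein HSP27, followed at 509.7 CPM per kilobase. HSPA8 and both HSP90 genes were above the other 7 genes in each of the 5 untreated lines. Under hypoxia this did not hold in DLD1, where HSPB1 at 1009 CPM per kilobase exceeded HSP90AA1 at 711.0, or in HCT8, where HSPB1 at 517.6 exceeded all 3. In untreated DLD1, STUB1 was at 132.7 CPM per kilobase, DNAJB1 at 103.9, HSPA4 at 72.6, HSPH1 at 44.1, BAG3 at 40.6 and HSF1 at 39.1. Together the 10 genes took 0.661% to 1.11% of the counts of an untreated library. Pseudogene rows were searched for HSP90AA1, HSP90AB1, HSPA8, HSPB1 and DNAJB1. They held at most 0.948% of the counts of pseudogenes and parent gene together, in the case of HSP90AA1. The stress-inducible HSP70 genes HSPA1A and HSPA1B, which are near-identical, had at most 1 and 301 counts in any library, and how reads that match both were counted was not stated, so their levels are uncertain.

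**Figure D1:**
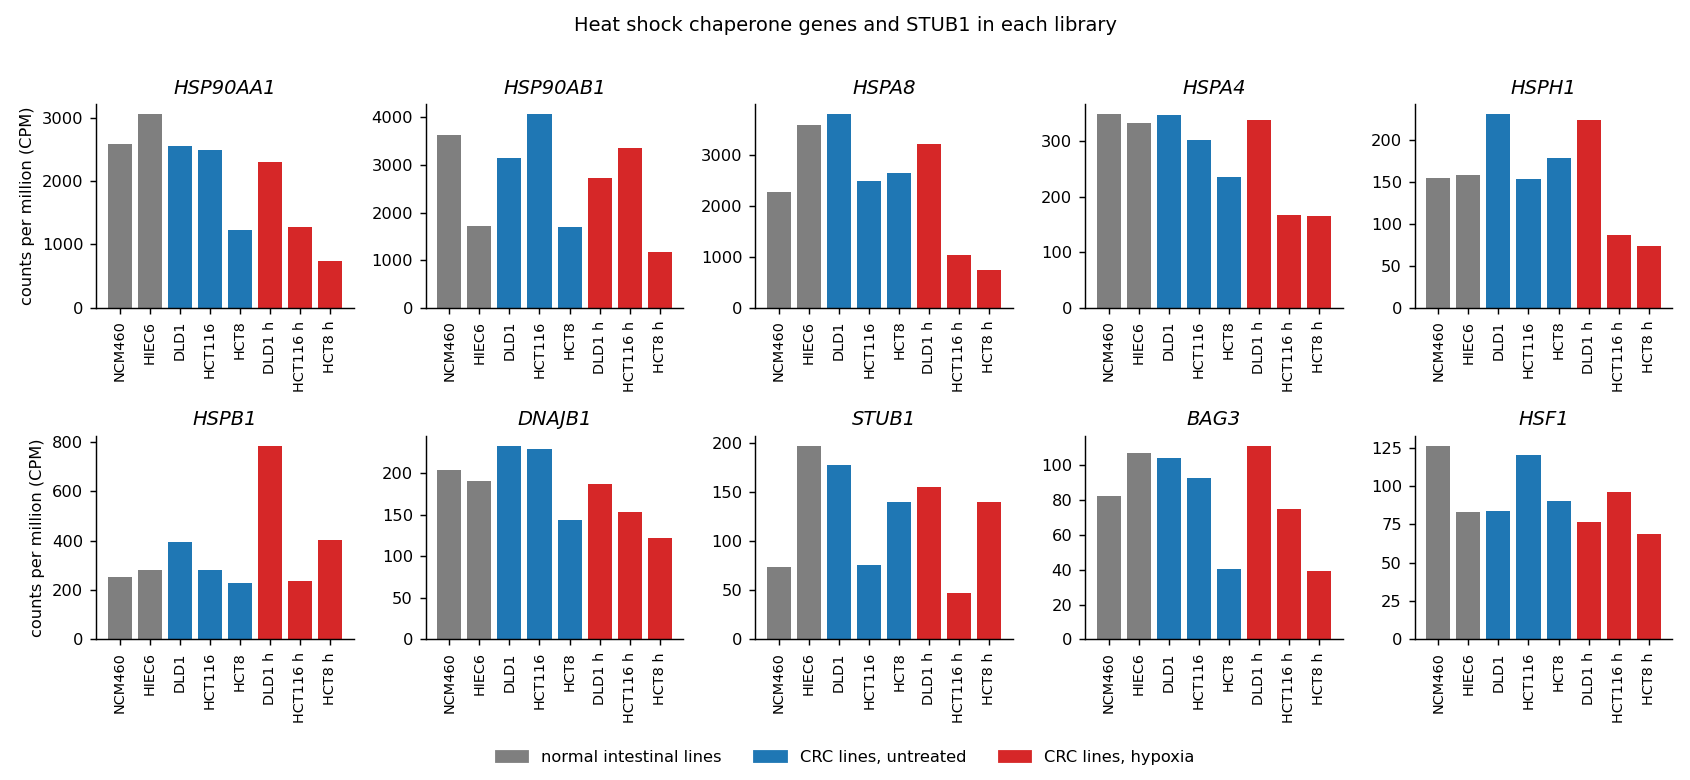
CPM of the 10 genes (vertical axes, each starting at 0) in the 8 libraries (horizontal axis, h for hypoxia), with 1 bar a library and no error bar because each line gave 1 library per condition. HSPA8, HSPH1 and HSPA4 were lowest in the hypoxia libraries of HCT116 and HCT8, and HSPB1 was highest in that of DLD1.

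The HSP90 pair was compared first, since HSP90α is the chaperone that the study places with RPS3. HSP90AA1 (chromosome 14, GRCh37 102547079 to 102606036, minus strand) was at 2583 CPM (NCM460) and 3054 CPM (HIEC6) in the normal group and at 2550 (DLD1), 2490 (HCT116) and 1222 CPM (HCT8) in the CRC group. Both normal lines thus lay above all 3 CRC lines, but NCM460, DLD1 and HCT116 were close together and HCT8 alone stood well below. HSP90AB1 (chromosome 6, 44213903 to 44221625, plus strand) was at 3623 CPM (NCM460) and 1715 CPM (HIEC6) in the normal group and at 3157 (DLD1), 4069 (HCT116) and 1691 CPM (HCT8) in the CRC group. It was low in HIEC6 and HCT8 and high in the other 3, so the groups overlapped. The log2 fold change of the CRC over the normal lines was -0.61 ± 0.46 (SE) for HSP90AA1 and 0.02 ± 0.55 for HSP90AB1, and both had an adjusted p of 0.999 in edgeR's quasi-likelihood test. Against HIEC6 alone these values were -0.79 ± 0.60 (adjusted p = 0.541) and 0.56 ± 0.69 (adjusted p = 0.706).

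A share within 1 library does not depend on how libraries are scaled. Per transcript length, HSP90AA1 made up 36.1% of the reads of both HSP90 genes in NCM460, 39.0% in DLD1, 32.6% in HCT116 and 36.4% in HCT8, and 58.5% in HIEC6. HIEC6 was the only one of the 5 untreated lines in which HSP90AA1 was the larger of the pair, and its exact binomial interval (58.3% to 58.7%) lay far from that of the others. Under hypoxia the share of DLD1 was 40.0%, that of HCT116 23.1% and that of HCT8 33.5%. It was therefore lower than without treatment in HCT116 and HCT8 and slightly higher in DLD1. With 1 library per line and condition no test was made.

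**Figure D2:**
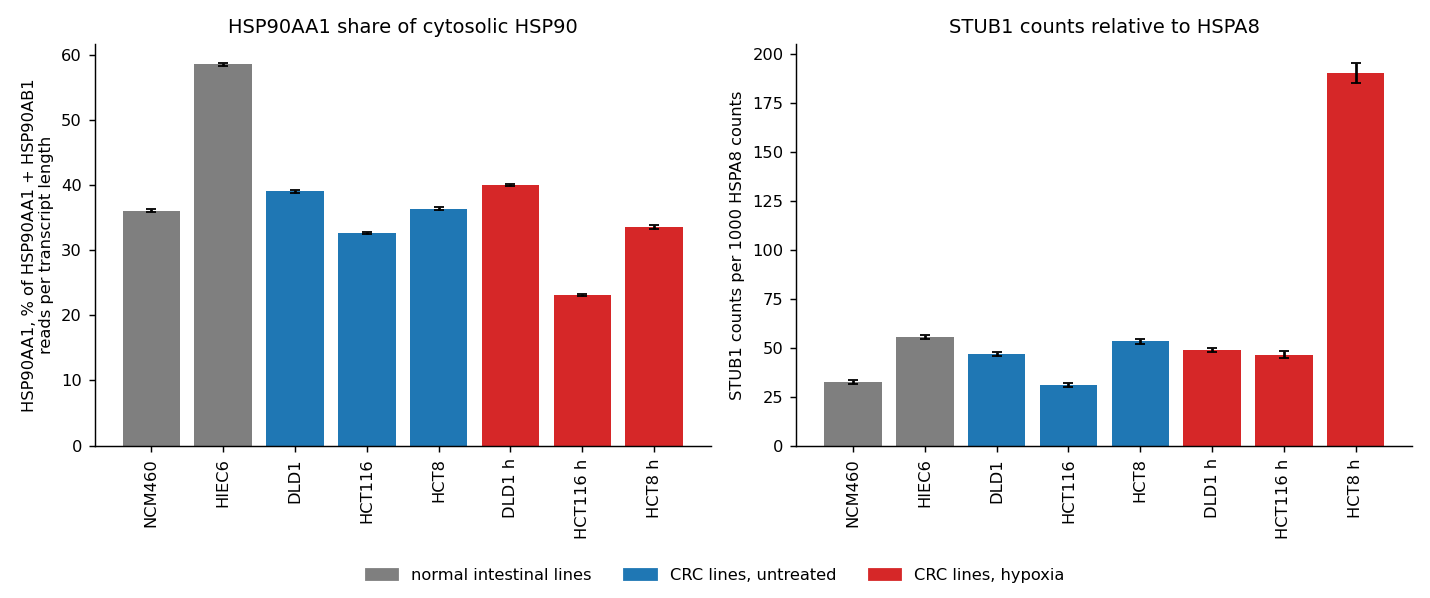
The left panel gives the share of HSP90AA1 in the reads of HSP90AA1 and HSP90AB1 per transcript length (%), and the right panel gives STUB1 counts per 1000 HSPA8 counts, by library (h for hypoxia). Bars are single libraries with exact 95% binomial intervals for counting error. HIEC6 has the highest HSP90AA1 share, 58.5%, and HCT8 under hypoxia has by far the highest STUB1 count per 1000 HSPA8 counts, 190.2.

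Of the HSP70 and HSP110 genes, HSPA8 (chromosome 11, 122928197 to 122933938, minus strand) was at 2267 CPM (NCM460) and 3574 CPM (HIEC6) in the normal group and at 3790 (DLD1), 2476 (HCT116) and 2640 CPM (HCT8) in the CRC group. The 2 normal lines took up nearly the whole range, and its log2 fold change was -0.18 ± 0.41 (-0.53 ± 0.44 against HIEC6 alone). HSPA4, an HSP110-type exchange factor (chromosome 5, 132387705 to 132442141, plus strand), was at 348 CPM (NCM460) and 332 CPM (HIEC6) in the normal group and at 346 (DLD1), 302 (HCT116) and 236 CPM (HCT8) in the CRC group, with a log2 fold change of -0.38 ± 0.31 (-0.42 ± 0.38 against HIEC6 alone). HSPH1 (HSP105), of the same family (chromosome 13, 31709110 to 31736525, minus strand), was at 155 CPM (NCM460) and 159 CPM (HIEC6) in the normal group and at 231 (DLD1), 153 (HCT116) and 179 CPM (HCT8) in the CRC group. Only DLD1 stood clearly above the others, and the log2 fold change was 0.07 ± 0.30 (-0.02 ± 0.36 against HIEC6 alone).

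HSPB1 (chromosome 7, 75931990 to 75933612, plus strand) was at 254 CPM (NCM460) and 281 CPM (HIEC6) in the normal group and at 396 (DLD1), 283 (HCT116) and 227 CPM (HCT8) in the CRC group, which places the normal lines within the range of the CRC lines (log2 fold change -0.01 ± 0.37, and -0.15 ± 0.46 against HIEC6 alone). DNAJB1, the main cytosolic HSP40 (chromosome 19, 14625581 to 14671203, minus strand), was at 203 CPM (NCM460) and 190 CPM (HIEC6) in the normal group and at 233 (DLD1), 229 (HCT116) and 144 CPM (HCT8) in the CRC group (log2 fold change -0.13 ± 0.35, and -0.16 ± 0.46 against HIEC6 alone). BAG3 (chromosome 10, 121410892 to 121437331, plus strand) was at 82.2 CPM (NCM460) and 107 CPM (HIEC6) in the normal group and at 104 (DLD1), 92.5 (HCT116) and 40.3 CPM (HCT8) in the CRC group. HCT8 had the lowest level of BAG3, as it had of both HSP90 genes, HSPA4, HSPB1 and DNAJB1, and the BAG3 log2 fold change was -0.44 ± 0.52 (-0.68 ± 0.66 against HIEC6 alone).

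STUB1 (chromosome 16, 730224 to 732870, plus strand) separated the lines into a high and a low set that crossed the groups. It was at 198 CPM in HIEC6, 178 in DLD1 and 140 in HCT8, and at 76.3 in HCT116 and 74.1 in NCM460. The last 2 differed little from each other, and the highest level was 2.67 times the lowest, the widest range of the 10 genes over the untreated lines with that of BAG3 (2.66 times). Its log2 fold change was -0.28 ± 0.59 (adjusted p = 0.999), and -0.86 ± 0.51 against HIEC6 alone (adjusted p = 0.454). STUB1 overlaps JMJD8, a gene on the opposite strand whose exons cover 700 of the 1340 bases of the STUB1 transcript (52.2%). JMJD8 held 44.4 to 103 CPM in the untreated lines and whether counting used strand was not stated, so reads of the pair may not be fully separated. HSF1, on chromosome 8, ran the other way, with 126 CPM in NCM460 and 120 in HCT116 and with 83.2 in HIEC6, 83.4 in DLD1 and 90.4 in HCT8 (log2 fold change -0.26 ± 0.33, and -0.02 ± 0.39 against HIEC6 alone). RPS3 itself was at 2965 CPM (NCM460) and 2228 CPM (HIEC6) in the normal group and at 2134 (DLD1), 2781 (HCT116) and 2198 CPM (HCT8) in the CRC group, again with NCM460 and HCT116 together, and its log2 fold change was -0.30 ± 0.31 (-0.16 ± 0.40 against HIEC6 alone).

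In this comparison 0 of the 10 genes and 0 of 46 tested genes of the wider chaperone network passed the threshold (adjusted p under 0.05), with a background of 0% of 19964 genes, of which 542 but none of the 10 had an unadjusted p under 0.05. DESeq2 called 143 of the genes and again 0 of the 10. The median log2 fold change was -0.22 over the 10 genes, -0.14 over the network genes and -0.00 over all genes tested. On the TMM scale (edgeR's trimmed mean of M values), HSP90AA1 and HSPA4 had no overlap between the groups, both being lower in the CRC lines, which makes 2 of 10 where 17.1% of all genes did not overlap. By library total HSPA4 did overlap, with HIEC6 at 332 CPM below DLD1 at 346. HSP90AA1 was then separated only by NCM460 at 2583 against DLD1 at 2550 CPM. Among the network genes with at least 10 counts in every library, the lowest log2 fold changes belonged to the HSP90 co-chaperone FKBP4 (-1.31 ± 0.57), the HSP70 HSPA2 (-1.27 ± 0.84) and the HSP90-binding CHORDC1 (-0.99 ± 0.43). The highest belonged to the small heat shock protein HSPB6 (1.02 ± 0.88, from 11 to 41 counts a library), the HSP90 partner SUGT1 (0.93 ± 0.54) and HSPA1B (0.85 ± 0.70). All 6 had an adjusted p of 0.999.

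Hypoxia was examined within each line. Genes used as a check of the treatment were higher under hypoxia. CA9, a carbonic anhydrase, was at 0.0195 to 0.115 CPM in the untreated CRC lines and at 3.91 to 18.8 CPM under hypoxia. NDRG1, a stress-response gene, was at 30.5 to 150 CPM without treatment and at 309 to 4026 CPM under hypoxia, VEGFA, a growth factor of blood vessels, at 58.3 to 119 and 135 to 237 CPM, and SLC2A1, a glucose transporter, at 152 to 616 and 907 to 1509 CPM. The rise was uneven between lines. The VEGFA ratio of CPM was lowest for DLD1 at 1.14, against 2.83 (HCT116) and 3.57 (HCT8). SLC2A1 had ratios of 1.47 (DLD1), 6.84 (HCT116) and 3.30 (HCT8). NDRG1 also rose least for DLD1 (10.1-fold), whereas CA9 rose most there, from 1 untreated count. With the line as a block, CA9 rose by 7.0 ± 0.53 (log2, adjusted p = 0.00447) and NDRG1 by 4.37 ± 0.35 (adjusted p = 0.00462). VEGFA and SLC2A1 were called by DESeq2 with the block but not by this edgeR fit. In the same fit the epithelial keratin gene KRT19 rose by 1.56 ± 0.17 (adjusted p = 0.0115) and the matrix gene FN1 by 2.80 ± 0.42 (adjusted p = 0.0295). No other gene of the marker lists was called in that fit, and their directions were mixed. KRT19 was higher under hypoxia in each line, whereas EPCAM was lower in each, with CPM ratios of 0.805 (DLD1), 0.720 (HCT116) and 0.900 (HCT8). In HCT8, VIM (0.214), COL1A2 (0.368) and SPARC (0.426) were lower, and FN1 had only 14 untreated and 21 hypoxia counts. Over the whole lists, 8 epithelial markers summed to 4551 to 11340 CPM without treatment and 5561 to 14028 CPM under hypoxia, and 8 mesenchymal markers to 12.6 to 41.4 and 25.1 to 171 CPM, and their part in the chaperone values was not tested. As these are bulk cultures, fewer cells with a transcript and less of it per cell cannot be told apart.

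The scaling matters in HCT116. There the median log2 difference of all genes was -0.36 when counts were divided by the library total and -0.01 after TMM scaling, against values between -0.01 and 0.03 in DLD1 and HCT8 on either scale. Together the 10 genes took 1.01% of the counts of DLD1 under hypoxia, 0.654% of those of HCT116 and 0.367% of those of HCT8, against 1.11%, 1.03% and 0.661% without treatment. Differences below are on the TMM scale, while levels are CPM by library total.

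HSPA8 had the largest difference of the 10 genes in HCT116 and in HCT8, whereas in DLD1 those of HSPB1 and DNAJB1 were larger. It went from 3790 to 3206 CPM in DLD1, from 2476 to 1030 in HCT116 and from 2640 to 736 in HCT8. The log2 differences were -0.21, -0.91 and -1.83, so all 3 lines had less HSPA8 under hypoxia but to very different extents. In HCT8 the CPM ratio was 0.279 (95% exact interval 0.275 to 0.282). HSPH1 went from 231 to 225 CPM in DLD1, from 153 to 87.6 in HCT116 and from 179 to 73.8 in HCT8, with log2 differences of -0.01, -0.45 and -1.27. HSPA4 went from 346 to 337, from 302 to 168 and from 236 to 165 CPM in the same lines, with log2 differences of -0.01, -0.49 and -0.50. For HSPH1 and HSPA4 the DLD1 value was close to 0 and turned positive with upper-quartile scaling (0.00 and 0.01).

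HSP90AA1 followed the same order of lines, from 2550 to 2295 CPM in DLD1, from 2490 to 1277 in HCT116 and from 1222 to 748 in HCT8 (log2 differences -0.12, -0.61 and -0.70). HSP90AB1 went from 3157 to 2723, from 4069 to 3365 and from 1691 to 1175 CPM. Its log2 differences were -0.18 in DLD1 and -0.51 in HCT8, and in HCT116 it was 0.08 on the TMM scale and -0.27 by library total. DNAJB1 went from 233 to 187, from 229 to 154 and from 144 to 122 CPM, with similar log2 differences in the 3 lines (-0.29, -0.22 and -0.23).

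HSPB1 differed in the other direction in DLD1 and HCT8. It went from 396 to 784 CPM in DLD1 and from 227 to 402 in HCT8, and from 283 to 235 in HCT116. The log2 differences were 1.02 in DLD1 and 0.84 in HCT8, and in HCT116 0.09 on the TMM scale but -0.27 by library total, so the sign in HCT116 depends on the scaling.

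STUB1 went from 178 to 156 CPM in DLD1 and from 76.3 to 47.9 in HCT116, and was at 140 in HCT8 both without treatment and under hypoxia (log2 differences -0.16, -0.32 and 0.01). Set against HSPA8 in the same library, STUB1 counts per 1000 HSPA8 counts were 46.9 in DLD1 and 48.6 under hypoxia, 30.8 and 46.4 in HCT116, and 53.2 and 190.2 in HCT8. The ratio in HCT8 under hypoxia was far above those of the other 7 libraries, which lay between 30.8 and 55.3, and it came with the low HSPA8 count rather than with more STUB1. BAG3 was at 104 and 111 CPM in DLD1, 92.5 and 74.5 in HCT116, and 40.3 and 39.1 in HCT8, with log2 differences of 0.13, 0.05 (-0.31 by library total) and -0.03. HSF1 was at 83.4 and 76.8, 120 and 96.4, and 90.4 and 68.9 CPM, with log2 differences of -0.09, 0.04 (-0.32 by library total) and -0.38. RPS3, the client, was at 2134 and 2039 CPM in DLD1, 2781 and 2881 in HCT116, and 2198 and 1554 in HCT8.

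**Figure D3:**
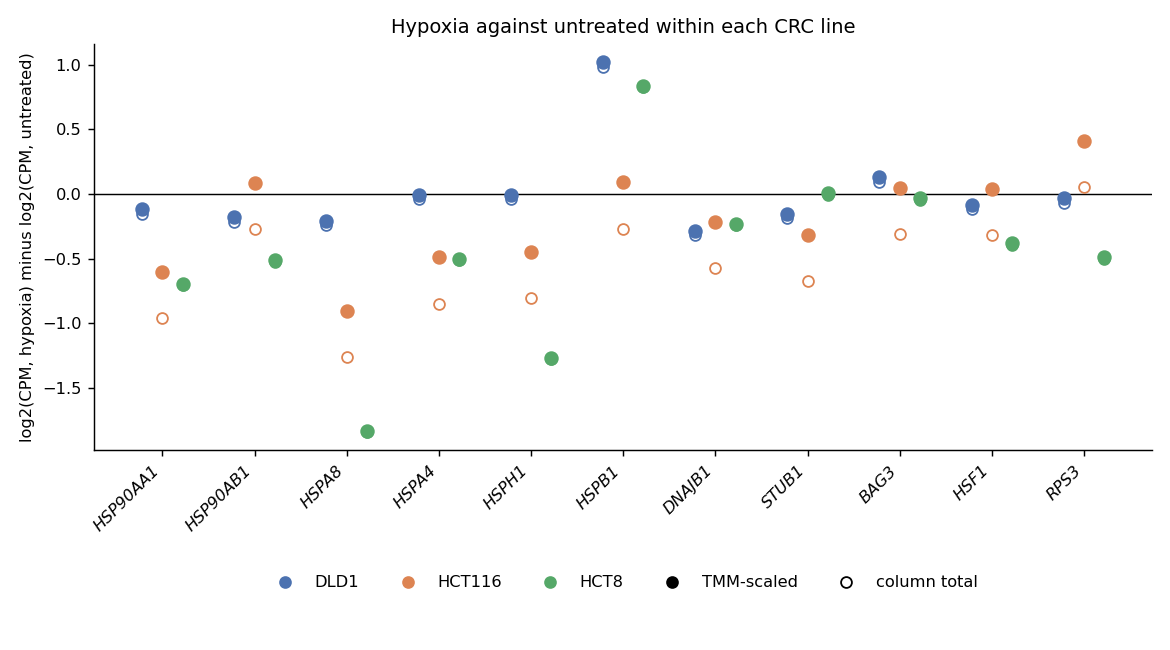
Difference of log2 CPM between the hypoxia and the untreated library (vertical axis) of DLD1, HCT116 and HCT8 for the 10 genes and RPS3, with filled points on the TMM scale and open points by library total. HSP90AA1, HSPA8 and DNAJB1 lie below 0 in all 3 lines on both scales, and HSPB1 lies near 1 in DLD1 and at 0.84 in HCT8.

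On the TMM scale 5 of the 10 genes (HSP90AA1, HSPA8, HSPA4, HSPH1 and DNAJB1) were lower under hypoxia in all 3 lines, where 21.2% of all 21045 genes were. By library total 8 of the 10 were, with a background of 26.4%. HSP90AA1, HSPA8 and DNAJB1 were lower in the 3 lines under TMM, upper-quartile and library-total scaling alike. A level at least 1.5-fold lower was found in 0 of the 10 genes in DLD1 (background 11.8%), in HSP90AA1 and HSPA8 in HCT116 (background 27.4%) and in HSP90AA1, HSPA8 and HSPH1 in HCT8 (background 19.2%). The number in HCT116 was thus no larger a share than that of all genes. For none of the 10 did the untreated and the hypoxia libraries separate without overlap (0 of 10, background 9.03%).

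The test without a block called 0 of the 10 genes (background 0% of 21045 genes, with 607 genes and none of the 10 at an unadjusted p under 0.05), and its log2 fold changes were -0.72 ± 0.60 for HSPA8 and 0.73 ± 0.45 for HSPB1. With the line as a block, edgeR called 200 genes, of which 0.741% of those tested were higher and 0.209% lower, and again 0 of the 10. Without the DLD1, the HCT116 or the HCT8 pair this count of 200 was 292, 738 or 6. In edgeR's blocked fit with every pair, 3884 of the 21045 genes and 4 of the 10 had an unadjusted p under 0.05. By edgeR's test these were HSPA8 (log2 fold change -0.98 ± 0.30, adjusted p = 0.145), HSPB1 (0.65 ± 0.22, adjusted p = 0.176), HSP90AA1 (-0.47 ± 0.19, adjusted p = 0.235) and HSPH1 (-0.57 ± 0.25, adjusted p = 0.270). DESeq2 with the same block called HSPA8 lower (-0.95 ± 0.33, adjusted p = 0.0409), where it called 3.38% of all genes lower, and left HSPB1 just outside (0.68 ± 0.25, adjusted p = 0.0529). The adjusted p of HSPA8 ranged from 0.0409 to 0.9999 over the alternatives. In edgeR's blocked fit, leaving out the HCT8 pair reduced the HSPA8 value to -0.56 ± 0.31 (adjusted p = 0.611). Without the HCT116 pair HSPB1 was called higher (0.91 ± 0.17, adjusted p = 0.0162), in a fit that called 461 of 19513 genes higher. The pair left out there was the one whose HSPB1 CPM ratio was below 1 (0.831). The other 6 genes lay between -0.33 ± 0.18 (HSPA4) and 0.05 ± 0.17 (BAG3) in edgeR's blocked fit, with STUB1 at -0.15 ± 0.17 (adjusted p = 0.675).

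The wider network of 50 listed genes, 46 of them tested, was also mixed. None (0 of 46) was called with or without the block in edgeR, and 16 of 46 were lower in all 3 lines, where 21.2% of all genes were. The class medians are given as a description, and no test between classes was made. The 11 HSP90 co-chaperones with enough counts had median log2 differences of -0.18 in DLD1, -0.77 in HCT116 and -0.54 in HCT8, and the 4 mitochondrial chaperones had -0.37, -0.55 and -0.73. The 7 J-domain co-chaperones had -0.05, 0.23 and 0.05, and the 5 ubiquitin-conjugating partners of STUB1 had -0.07, 0.03 and -0.29. The 3 heat shock factors and HSF1 regulators had 0.03, 0.53 and 0.50, the 4 genes of the HSP70 family had 0.04, 0.12 and -0.27, and the 6 nucleotide exchange factors and HSP70 regulators had -0.05, -0.19 and 0.06. HSPA4L, the 1 gene of the HSP110 class, had 0.02, -1.17 and -0.37, and none of the 3 small heat shock proteins had enough counts. All genes with at least 10 counts had medians of 0.02 in DLD1, -0.00 in HCT116 and 0.02 in HCT8.

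DESeq2 with the block called 6 of the 46, all lower, where it called 1666 of the 21045 genes in all and 3.38% of them lower. They were PPID (-0.95 ± 0.22, adjusted p = 0.000925), FKBP5 (-0.70 ± 0.18, adjusted p = 0.00382) and FKBP4 (-0.74 ± 0.23, adjusted p = 0.0196), which are immunophilin partners of HSP90, with the mitochondrial co-chaperonin HSPE1 (-1.35 ± 0.39, adjusted p = 0.00890), and the HSP70 regulators BAG2 (-1.03 ± 0.30, adjusted p = 0.0109), an inhibitor of STUB1, and HSPBP1 (-0.65 ± 0.21, adjusted p = 0.0250). In edgeR's fit without the block the lowest network values were those of HSPE1 (-1.07 ± 0.66), BAG2 (-0.90 ± 0.59) and PPID (-0.88 ± 0.55), and the highest were those of the J-domain genes DNAJB2 (0.88 ± 0.48) and DNAJB5 (0.82 ± 0.82) and of HSPA2 (0.60 ± 0.50), each with an adjusted p of 0.9999. HSPE1 was at 14.2 to 20.3 CPM without treatment and 2.89 to 15.2 CPM under hypoxia. It overlaps the gene HSPE1-MOB4 on the same strand. How reads that match both were counted was not stated, so its level is uncertain.

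**Figure D4:**
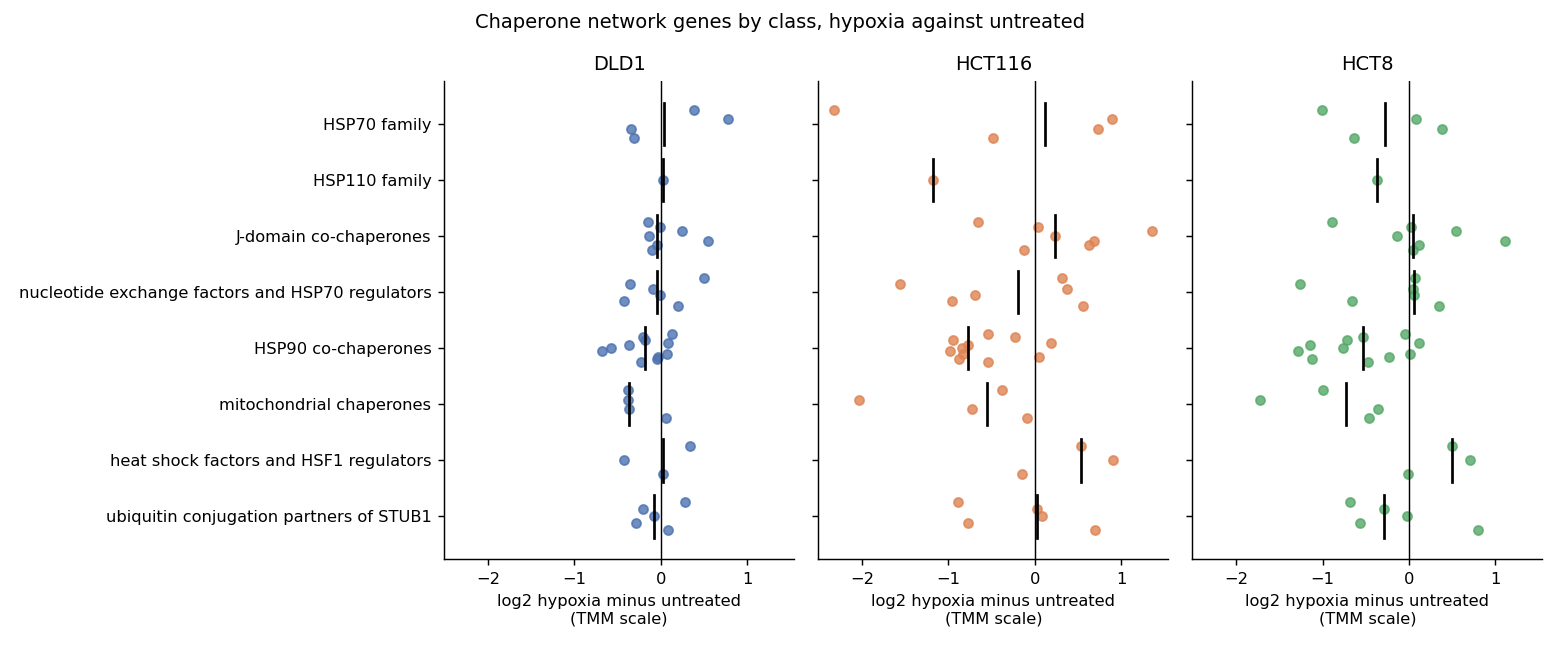
Difference of log2 CPM on the TMM scale between hypoxia and no treatment (horizontal axis) for network genes with at least 10 counts in every CRC library, by class, with 1 panel a line, 1 point a gene and black bars for class medians. The medians of the HSP90 co-chaperones and the mitochondrial chaperones lie below 0 in all 3 lines.

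Over the 8 libraries the genes outside the lists whose log2(CPM + 1) followed HSP90AA1 most closely were NSMAF (Pearson r = 0.987), HSP90AA2P (0.984), a copy of HSP90AA1 that can share its reads, and UBE2G1 (0.978). For STUB1 they were NUP214 (0.992), MPC2 (0.992) and OSGEP (0.992), and for BAG3 they were MARK1 (0.991), ZNF274 (0.986) and S100A16 (0.956). These were the 3 highest of 10034 candidate genes with a mean of at least 10 CPM, the libraries include each CRC line with and without hypoxia, and the coefficients are given as a description.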

How the data were processed

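Total RNA of 5 untreated cell lines and of 3 CRC lines under hypoxia was sequenced after removal of ribosomal RNA. The authors deposited raw counts per gene. The submitters' processing notes name HISAT2 2.0.4 and GRCh38, whereas the methods name GRCh37.p13; the counter, its use of strand and its treatment of reads with several matches are not given in the sources used here. Columns were mapped to samples by title, and 0 columns were left aside. Groups came from the labels.

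CPM were computed from the column totals. Tests used edgeR 4.0.16 (quasi-likelihood, TMM, Benjamini-Hochberg threshold 0.05; R 4.3.3). A gene entered a fit if 2 or more of its libraries held 10 or more counts, and p was adjusted over all genes tested. Alternatives were DESeq2 1.42.0, upper-quartile scaling, other filters, all 8 libraries, a replicate block and leaving out libraries. In the hypoxia comparison the replicate number is the cell line and pairs the samples. After the group means were subtracted, the 2 libraries of a line correlated at 0.820 to 0.857, and libraries of different lines at -0.611 to -0.0599. Gene positions and canonical transcript lengths come from GENCODE release 44 lifted to GRCh37, and all 10 genes were matched by symbol. The fitting steps were tested on simulated data. Named genes are all 10 members, RPS3, and for each comparison the 3 network genes with the largest and the 3 with the smallest log2 fold change, any called network gene, HSPA1A and HSPA1B, the 3 most similar genes of HSP90AA1, STUB1 and BAG3, and hypoxia targets. The members and gene lists were chosen with earlier results of these data known, and the counts of genes lower in all 3 lines, the 1.5-fold rule and the ratio of STUB1 to HSPA8 were added after the values had been seen.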

Additional observations from a re-analysis of the deposited data

Results flagged for a closer look

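RPS3, the client of these chaperones, differed between the lines under hypoxia in opposite directions under each of the 3 scalings. On the TMM scale its log2 difference was 0.41 in HCT116 and -0.49 in HCT8, and -0.033 in DLD1. By library total these were 0.051, -0.50 and -0.066, so the size of the HCT116 value depends on the scaling. With 1 library a line and condition the difference between lines was not tested. In the same libraries HSPA8 was lower in all 3 lines.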

How the results depend on the processing

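The number of genes called moved with the test and the block, and that of the 10 genes hardly did. Against the normal lines DESeq2 called 143 genes and the other alternatives 0. Under hypoxia DESeq2 called 55 genes, the replicate block 200, DESeq2 with the block 1666, and the block without the DLD1, HCT116 and HCT8 pairs 292, 738 and 6. Network genes called numbered 6 with DESeq2 and the block and 1 (PPID) with the block without the HCT116 pair, and members called numbered 1 in each of these fits (HSPA8, then HSPB1). The replicate block changed no other call, and against the normal lines, where a shared number joins different lines, it called 0 genes. The median HSP90AA1 share was 36.2% per length and 41.8% from undivided counts.

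Of the single-gene log2 fold changes, HSP90AA1, HSPA4, HSPA8, HSPH1 and DNAJB1 kept their sign under every alternative in the hypoxia comparison, as did HSPB1. Values against the normal lines that changed sign were HSPB1 (0.090 with upper-quartile scaling, 0.014 with at least 10 counts in every library, 0.19 with the replicate block) and DNAJB1 (0.10 with the block). Under hypoxia RPS3 turned to -0.038 with the block, -0.011 with DESeq2 and the block, -0.038 without the DLD1 pair and -0.28 without the HCT116 pair. With each library left out in turn, values against the normal lines ranged from -0.36 to 0.56 for HSP90AB1, -0.53 to 0.29 for HSPA8, -0.12 to 0.17 for HSPH1, -0.26 to 0.21 for HSPB1, -0.28 to 0.10 for DNAJB1 and -0.86 to 0.72 for STUB1. The ends for STUB1 and HSPA8 came from leaving out NCM460 and HIEC6. Under hypoxia they ranged from -0.65 to 0.29 for HSP90AB1, -0.42 to 0.18 for STUB1, -0.27 to 0.43 for BAG3, -0.48 to 0.13 for HSF1 and -0.44 to 0.34 for RPS3. The cause of these changes was not tested. Where a fit left 1 library in a group, that library was assumed to vary like the others. The lowest count of the 10 genes in any library was 1780, and what limited the calls was not tested.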
